A study of Mus musculus with 48 samples.

Results

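Amino acids enter and leave mouse embryonic stem cells through carriers encoded by the solute carrier (Slc) families 1, 3, 6, 7, 36, 38 and 43. The genes described here are all rows of the deposited expression table whose symbol is Slc followed by 1 of these 7 family numbers, the letter a and a member number. The rule matched 60 of 48321 rows and used no measured value. Detected genes numbered 36 of these 60, meaning that 3 or more of the 9 RNA-seq libraries reached 1 TPM (a transcript level corrected for gene length and library size). The other 24 were not tested. Slc38a5, Slc38a8 and Slc7a8 were detected in the libraries of 1 line alone, so each of these 3 had to differ between lines to be counted at all.

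The 9 libraries hold poly-A RNA of male R1 embryonic stem cells of strain 129SV, 3 libraries for each of 3 lines. WT cells are wild type. The dKO line carries a double knockout of Mll3 (Kmt2c) and Mll4 (Kmt2d), the methyltransferases that place a single methyl group on histone H3 lysine 4 at enhancers, and in the dCD line both proteins are catalytically deficient. All 3 lines grew without serum in 2i+LIF, that is with the MEK inhibitor PD0325901, the GSK3 inhibitor CHIR99021 and the cytokine LIF. The labels name 1 line per genotype, so clone and genotype cannot be told apart, and they do not say that libraries came from separate cultures, so p-values measure the spread between libraries only.

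As background, the families divide the work. Slc1 carriers use the sodium gradient to take up glutamate or exchange neutral amino acids, and Slc6 carriers use sodium and chloride to take up taurine, creatine, proline, glycine or neurotransmitters. Most Slc7 light chains reach the surface only as partners of a heavy chain of family 3 and exchange leucine, glutamine, arginine or cystine, while the cationic Slc7 carriers take up arginine and lysine alone. Slc36 and Slc38 proteins move small neutral amino acids and glutamine at the surface and at lysosomes, and Slc43 proteins include facilitators for large neutral amino acids.

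Depth, recovered from the steps between TPM values, was 21090624 to 56249770 reads per library. Kmt2c fell in dKO from 21.1 to 7.66 TPM, while Kmt2d stood at 66.4 TPM in WT and 82.9 TPM in dKO. The labels do not give the deleted part of each gene, so the Kmt2d level does not check the genotype. The 8 embryonic stem cell markers (Pou5f1, Sox2, Nanog and others) were at 1 TPM or more in every line, and summed to between 13328 and 13804 TPM in WT, 6998 and 7066 TPM in dKO, and 10000.1 and 10355 TPM in dCD. Dppa5a fell from 6433 to 1199 TPM in dKO (limma adjusted p = 1.53e-12), while Klf4 rose from 475 to 808 TPM (limma adjusted p = 4.26e-09). Markers of other cell types moved as well. The 11 fibroblast markers summed to 10.6 to 13.2 TPM in WT, 178.5 to 200.2 TPM in dKO and 975 to 1059 TPM in dCD, where Lum and S100a4 were at 0. Acta2 and Tagln made up most of these sums in the mutant lines (520.0 and 468 TPM in dCD, 100.1 and 70.7 TPM in dKO). Postn and Dcn had means of at most 0.487 TPM. Thy1 fell in dKO from 2.18 to 0.412 TPM (limma adjusted p = 2.84e-05) and rose in dCD to 3.39 TPM (limma adjusted p = 0.0194). Col1a1 rose from 0.470 TPM in WT to 10.2 TPM in dKO (limma adjusted p = 6.86e-11) and 7.57 TPM in dCD (limma adjusted p = 6.03e-10). Of the 7 tested fibroblast markers, 5 were higher and 1 lower in dKO, and all 7 were higher in dCD. Over all genes 43.4% were higher and 28.4% lower in dKO, and 28.9% were higher in dCD. The 8 trophoblast markers summed to 99.1 to 106 TPM in WT, 131 to 136 TPM in dKO (Elf5 at 0) and 595 to 632 TPM in dCD. Krt8 and Krt18 made up most of the sums in the mutant lines (205 and 311 TPM in dCD, 40.5 and 50.6 TPM in dKO). Tfap2c fell in dKO from 54.6 to 30.1 TPM (limma adjusted p = 5.31e-09), and Gata3 rose in dCD from 3.34 to 21.1 TPM (limma adjusted p = 6.26e-09). Eomes was at 6.26 TPM in WT, 6.67 TPM in dKO and 6.31 TPM in dCD. The 8 primitive endoderm markers stood at 9.33 to 10.9, 18.3 to 19.3 and 29.2 to 31.7 TPM in the same order, with Afp at 0 in WT. Dab2 was the largest part of the dCD sum, at 14.2 TPM against 0.463 TPM in WT (limma adjusted p = 2.55e-10). Gata6 rose in dCD from 2.19 to 5.01 TPM (limma adjusted p = 3.92e-05). Gata4 was at 4.98 TPM in WT, 8.42 TPM in dKO (limma adjusted p = 0.000104) and 5.53 TPM in dCD (limma adjusted p = 0.253). The 8 neural markers summed to 415 to 432 TPM in WT, 380.1 to 388 TPM in dKO and 347 to 361 TPM in dCD. Tubb3 and Stmn2 made up most of these sums, and members moved in both directions. In dKO Sox1 rose from 14.3 to 60.1 TPM (limma adjusted p = 5.31e-11) and Tubb3 fell from 185 to 85.9 TPM (limma adjusted p = 1.36e-09). In dCD Nes rose from 18.8 to 39.2 TPM (limma adjusted p = 3.69e-08) and Stmn2 fell from 201 to 91.2 TPM (limma adjusted p = 1.89e-09). The part of these markers in the transporter results was not tested. In bulk RNA, fewer cells of a type and less RNA per cell cannot be told apart.

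The first comparison asked how transporter transcripts differ in the line labelled as a double knockout. By limma's moderated test on log2(TPM + 1), with p-values adjusted over all 16179 tested genes, 31 of 36 detected transporter genes changed in dKO against WT at an adjusted p under 0.05. In all genes 71.8% did. Of the transporter genes 20 were higher, against 43.4% of all genes, and 11 were lower, against 28.4%. With a change of at least 2-fold on that scale added, 14 of 36 were called, 8 higher and 6 lower, where 13.9% of all genes were called, 6.01% higher and 7.89% lower. These 14 include Slc38a5 and Slc38a8, which were detected in 1 line alone and had to differ between lines to be tested. The same filter applied to all genes. Libraries of dKO and WT did not overlap for 32 of 36 transporter genes and for 74.4% of all genes. The median absolute log2 fold change was 0.68 over the 36 transporter genes and 0.33 over all genes. Under median-ratio scaling, which centres each library on its typical gene, the share of higher genes among all called genes went from 60.4% to 49.9%, and the transporter split became 18 higher and 12 lower, with 6 in each direction at 2-fold.

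The second comparison asked the same of the line that keeps catalytically deficient proteins. In dCD 23 of 36 transporter genes changed against WT, 12 higher and 11 lower, where 58.4% of all genes changed, 28.9% higher and 29.5% lower. At 2-fold 5 were called, 3 higher (Slc7a8, Slc43a3 and Slc1a1) and 2 lower (Slc7a3 and Slc38a8), beside 6.94% of all genes, 4.62% higher and 2.32% lower. Of these 5, Slc7a8 and Slc38a8 were detected in 1 line alone and had to differ between lines to be tested. The libraries of dCD and WT did not overlap for 23 of 36 transporter genes and for 63.5% of all genes. Here the median absolute log2 fold change of the transporter genes, 0.20, was close to the 0.21 of all genes.

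The third comparison set the mutant lines against each other. Between dKO and dCD 28 of 36 transporter genes differed, 20 higher and 8 lower in dKO, where 69.3% of all genes differed, 42.3% higher and 27% lower. At 2-fold 9 were called, 4 higher in dKO (Slc1a6, Slc38a1, Slc38a5 and Slc7a7) and 5 lower (among them Slc1a1, Slc6a7, Slc6a15 and Slc7a8), beside 11% of all genes, 3.6% higher and 7.36% lower. Here too, Slc38a5 and Slc7a8 were detected in 1 line alone and had to differ between lines to be tested. The libraries of dKO and dCD did not overlap for 29 of 36 transporter genes, against 73.1% of all genes. Median-ratio scaling moved the share of higher genes among all called genes from 61.0% to 48.9% here, and the transporter split to 16 higher and 13 lower. By limma's moderated F test, 34 of 36 transporter genes differed among the 3 lines, the exceptions being Slc1a3 and Slc38a2, beside 82.6% of all genes. Comparisons that share a line are not independent, so their values are only set side by side.

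**Figure D1:**
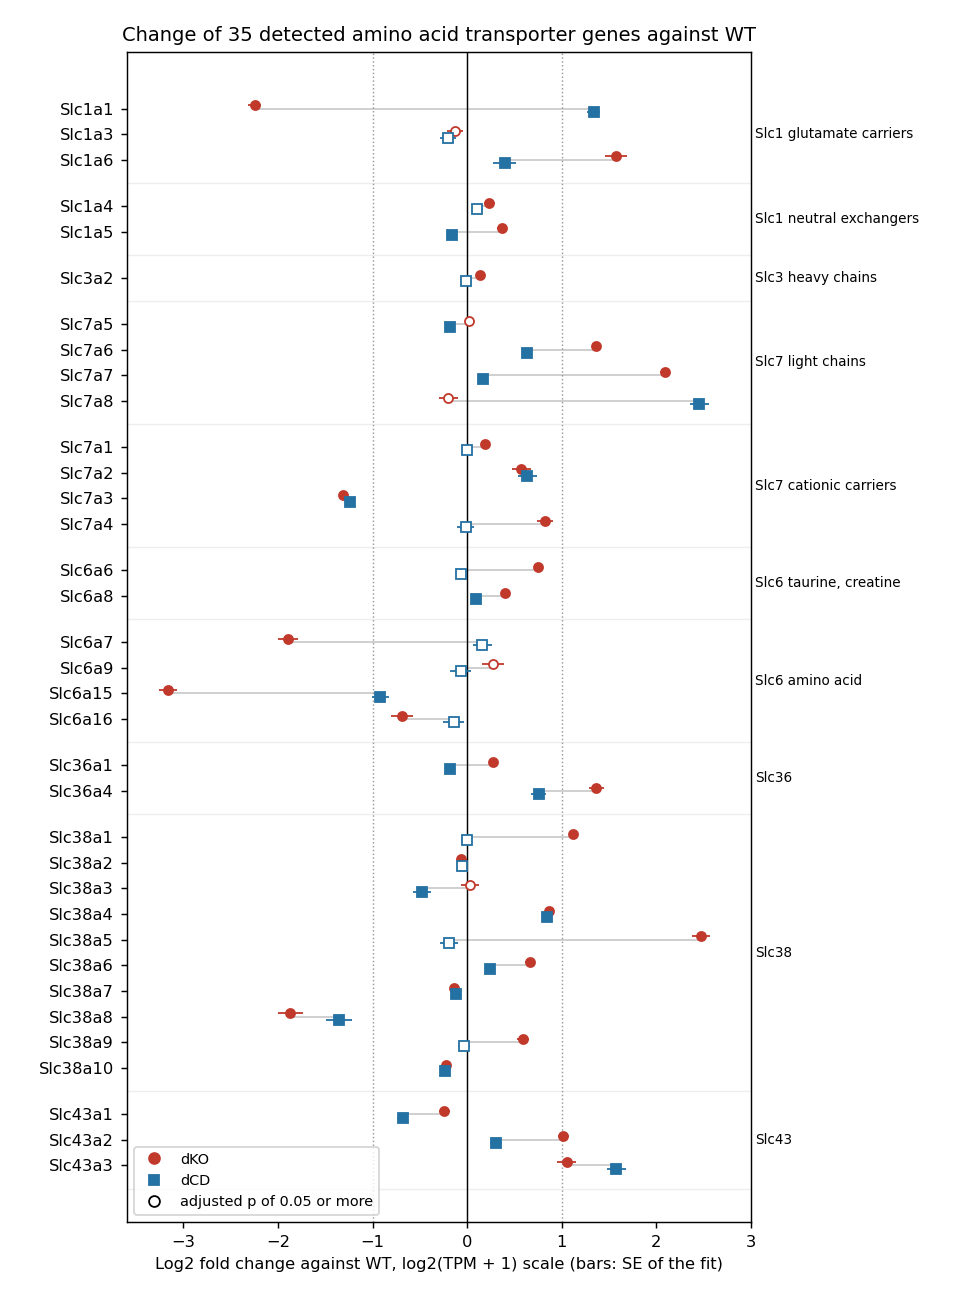
Log2 fold change of 35 of the 36 detected transporter genes in dKO (circles) and dCD (squares) against WT, on the log2(TPM + 1) scale, grouped by role. Bars are the standard error of the limma fit, open symbols mark an adjusted p of 0.05 or more, and dotted lines mark a 2-fold change. Slc6a15 lies farthest left in dKO at -3.16, Slc38a5 farthest right in dKO at 2.47, and Slc7a8 farthest right in dCD at 2.46.

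Transcripts of all 60 genes made up 1782 ± 6.71 TPM in WT (SD, n = 3), 2158 ± 32.0 TPM in dKO and 1783 ± 47.5 TPM in dCD. The Slc38 family held the largest share of this sum, 32.9% in WT, 35.0% in dKO and 37.6% in dCD. The 8 genes with the highest mean level, Slc7a5, Slc38a4, Slc38a2, Slc3a2, Slc6a8, Slc6a6, Slc38a10 and Slc38a1, together held 74.0% of it in WT, 76.2% in dKO and 77.2% in dCD. At the other end, the 3 monoamine carriers Slc6a2, Slc6a3 and Slc6a4 summed to 0.207 TPM in WT.

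**Figure D2:**
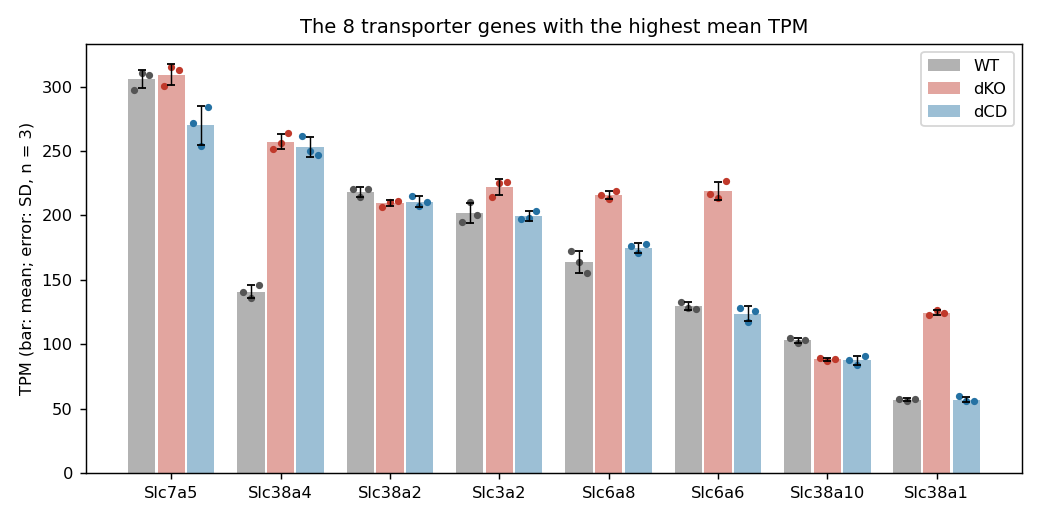
TPM of the 8 transporter genes with the highest mean level; bars are means, error bars the SD over 3 libraries, and points single libraries. Slc38a4 stands at 141 TPM in WT and between 247 and 264 TPM in the libraries of both mutant lines, whereas Slc38a1 and Slc6a6 are high in dKO and near WT in dCD.

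Heavy and light chains were considered first. Slc3a2 encodes CD98hc (4F2hc), the heavy chain that carries most Slc7 light chains to the membrane. It measured 195, 210.0 and 200.5 TPM in WT libraries 1 to 3, 215, 225 and 226 TPM in dKO, and 197, 198 and 204 TPM in dCD. The dKO libraries lay just above all others, while dCD and WT overlapped. The log2 fold change in dKO was 0.14 (SE 0.0314, limma adjusted p = 0.00276), and it shrank to 0.03 with median-ratio scaling (limma adjusted p = 0.419). Against WT the dCD change was -0.02 (limma adjusted p = 0.69). The other heavy chain, Slc3a1 (rBAT), reached at most 0.351 TPM.

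Slc7a5 (LAT1), the main importer of leucine and other large neutral amino acids in dividing cells, was the most abundant transporter transcript. Its level was 298, 310.1 and 309 TPM in WT, 300.2, 315 and 312 TPM in dKO, and 272, 254 and 284 TPM in dCD. WT and dKO overlapped, and all dCD libraries were lower. In dCD it fell by 0.18 on the log2 scale (SE 0.0388, limma adjusted p = 0.00251), and in dKO the log2 fold change was 0.02 (limma adjusted p = 0.722).

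The remaining light chains changed by much more. Slc7a7 (y+LAT1), which exports arginine and lysine in exchange for neutral amino acids and sodium, measured 16.5, 18.8 and 17.04 TPM in WT, 77.6, 78.3 and 76.6 TPM in dKO, and 19.2, 20.5 and 19.5 TPM in dCD. Every dKO library stood far above the other 6, and the dCD libraries lay slightly above WT without overlap. The rise in dKO was 2.09 on the log2 scale (SE 0.0461, limma adjusted p = 8.17e-11), 4.44-fold between means, and the rise in dCD was 0.17 (limma adjusted p = 0.00861). Between dKO and dCD it differed by 1.92 (limma adjusted p = 1.97e-10). Slc7a7 overlaps Oxa1l in the RefSeq annotation of GRCm38.p6, and the strand setting of the counting is not given in the sources used here. Oxa1l, a mitochondrial insertase, was at 92.8 TPM in WT, 111 TPM in dKO and 95.9 TPM in dCD, a log2 fold change in dKO of 0.26 (limma adjusted p = 4.16e-06).

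Slc7a6 (y+LAT2), with a like exchange activity, rose in both mutant lines. It was at 18.4, 19.98 and 20.6 TPM in WT, 51.4, 51.5 and 53.3 TPM in dKO, and 31.4, 29.5 and 32.3 TPM in dCD. The 3 lines did not overlap, with dKO highest and WT lowest. Its log2 fold change was 1.36 in dKO (SE 0.0459, limma adjusted p = 1.67e-09) and 0.63 in dCD (limma adjusted p = 1.18e-06). The mutant lines differed by 0.73 (limma adjusted p = 2.34e-07).

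Slc7a8 (LAT2), an exchanger of small and large neutral amino acids, behaved the other way round. It was at 0.924, 0.845 and 0.701 TPM in WT, 0.801, 0.527 and 0.457 TPM in dKO, and 9.51, 8.32 and 9.22 TPM in dCD. Only dCD libraries reached 1 TPM, resting on 325 to 631 reads each, against 18 to 42 in WT and 16 to 25 in dKO. The gene was tested only because dCD was high, so its p-values are not separate evidence of a difference. It rose in dCD by 2.46 on the log2 scale (SE 0.104, limma adjusted p = 2.34e-08), 10.9-fold between means, and its change in dKO was -0.20 (limma adjusted p = 0.113). Between dKO and dCD the difference was -2.65 (limma adjusted p = 6.28e-09).

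Because these light chains share 1 heavy chain, their levels were also set against it. The TPM of the 6 light chains known to pair with Slc3a2, summed and divided by the TPM of Slc3a2, was 1.71, 1.67 and 1.74 in WT, 2.01, 1.98 and 1.96 in dKO, and 1.69, 1.58 and 1.70 in dCD. The ratio was thus higher in each dKO library than in any other. Slc7a5 made up 88.5% to 89.1% of light chain TPM in WT, 69.7% to 70.7% in dKO and 81.1% to 82.2% in dCD. Slc7a7 took 4.90% to 5.36% in WT, 17.3% to 18.0% in dKO and 5.64% to 6.56% in dCD. The share of Slc7a6 was 5.52% to 5.91% in WT, 11.5% to 12.0% in dKO and 9.32% to 9.43% in dCD. Slc7a8 held 2.66% to 2.86% in dCD and at most 0.277% in any library of the other lines. Slc7a11 (xCT), the cystine importer that supplies glutathione synthesis, stayed under the detection level, at 0.429 to 0.778 TPM over the 9 libraries.

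**Figure D3:**
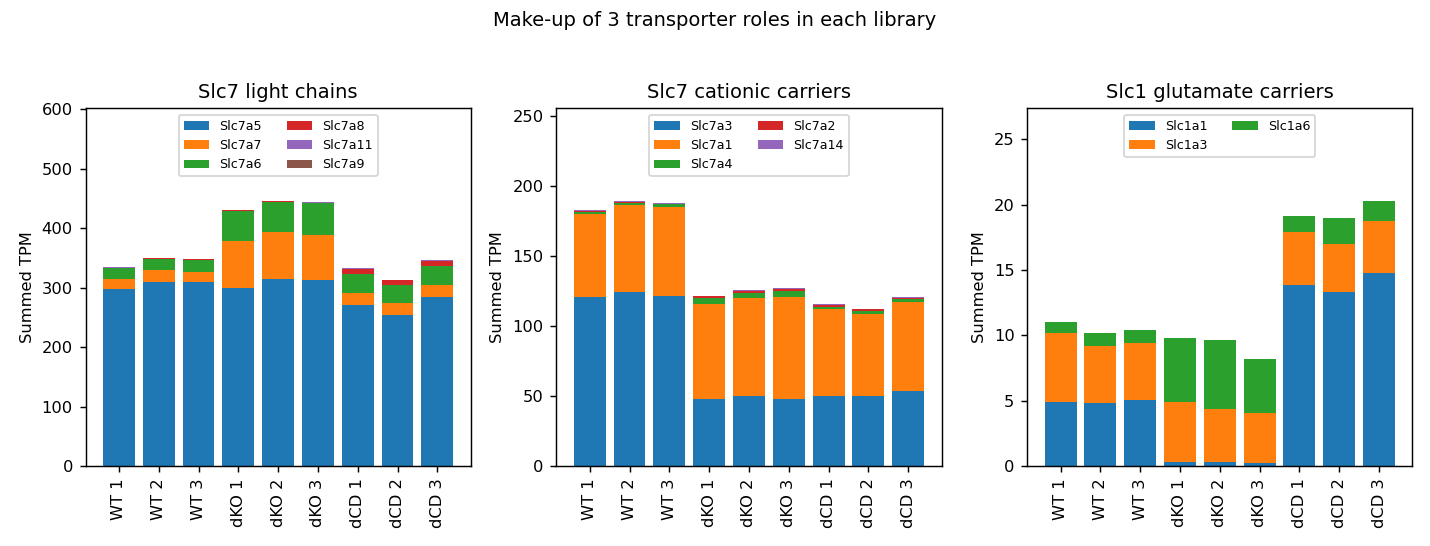
Summed TPM of Slc7 light chains, Slc7 cationic carriers and Slc1 glutamate carriers in each of the 9 libraries, stacked by gene. Slc7a7 and Slc7a6 take more of the light chain bar in dKO, Slc7a3 takes less of the cationic bar in both mutant lines, and among glutamate carriers Slc1a1 is nearly missing in dKO and dominant in dCD.

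The upstream sequence is shown for the light chain genes with the largest fitted rise in dKO (Slc7a7) and in dCD (Slc7a8). Each is the 250 bases before a RefSeq transcript start, 5′ to 3′ on the gene's strand, in build GRCm38.p6. Slc7a7 lies at chr14:54417945-54418194 on the minus strand and Slc7a8 at chr14:54781887-54782136 on the minus strand. Capitals in Slc7a7 mark a match to TGATGNAAN, the amino acid response element bound by ATF4 with C/EBP partners, which begins 141 bases before the start. RefSeq gives Slc7a7 5 starts, of which the most upstream is used here, and 3 of the 5 windows hold no such match. A further match, at 1 base before the printed start, is also counted in a second Slc7a7 window, where it is the same site. The Slc7a8 window holds no match to this motif, to the E-box CACGTG, to the antioxidant core TGACNNNGC or to the cAMP response element TGACGTCA.
Slc7a7: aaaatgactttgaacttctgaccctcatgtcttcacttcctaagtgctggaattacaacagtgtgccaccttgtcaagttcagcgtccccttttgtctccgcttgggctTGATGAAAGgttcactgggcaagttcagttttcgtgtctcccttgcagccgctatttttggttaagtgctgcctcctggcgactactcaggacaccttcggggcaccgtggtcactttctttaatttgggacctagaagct
Slc7a8: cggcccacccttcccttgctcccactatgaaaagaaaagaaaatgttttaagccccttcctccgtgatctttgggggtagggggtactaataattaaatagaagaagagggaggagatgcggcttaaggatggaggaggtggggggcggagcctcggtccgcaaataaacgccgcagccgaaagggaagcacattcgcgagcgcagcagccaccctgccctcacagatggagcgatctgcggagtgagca

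Windows from 250 bases before to 50 after a start were held for 23 of the 36 detected genes, 34 windows in all, and all 4 motifs were searched on both strands, where matches of different motifs may overlap. TGATGNAAN was in 3 of 34 windows (8.82%), those of Slc7a7 and Slc1a4, and in 3.95% of all 32851 windows. CACGTG was in 6 of 34 (17.6%) against 7.15% of all windows, TGACNNNGC in 9 of 34 (26.5%) against 12.4%, and TGACGTCA in 1 of 34 (2.94%) against 1.79%. The 9 windows with TGACNNNGC belong to 7 genes, and the overlapping windows of Slc7a6 count the same site more than once. A match describes letters only, and binding was not measured in the files analysed here.

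Among the cationic carriers, Slc7a3 (CAT3) was the most abundant in WT and fell in both mutant lines. It measured 121, 124 and 122 TPM in WT, 47.5, 49.97 and 48.1 TPM in dKO, and 49.9, 49.7 and 53.7 TPM in dCD. All 6 mutant libraries lay below WT, and dKO and dCD overlapped. Its log2 fold change was -1.32 in dKO (SE 0.0345, limma adjusted p = 2.83e-10) and -1.24 in dCD (limma adjusted p = 1.4e-09). The difference between dKO and dCD was -0.07 (SE 0.0345, limma adjusted p = 0.0857). It passed the threshold under median-ratio scaling at -0.18, and also with quantile normalization and voom. Snx12, a sorting nexin gene that overlaps Slc7a3, was at 36.8 TPM in WT, 39.3 TPM in dKO and 37.2 TPM in dCD.

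Slc7a1 (CAT1), the widespread arginine and lysine carrier, was at 61.2 ± 2.20 TPM in WT (SD, n = 3), 70.1 ± 2.14 TPM in dKO and 61.3 ± 2.22 TPM in dCD. It rose by 0.19 on the log2 scale in dKO (limma adjusted p = 0.000886), and its log2 fold change in dCD was 0.00 (limma adjusted p = 0.959). Slc7a3 made up 64.7% to 66.2% of cationic carrier TPM in WT, 37.97% to 39.9% in dKO and 43.2% to 44.6% in dCD. Slc7a1 went from 32.2% to 33.5% in WT to 55.7% to 57.2% in dKO and 52.4% to 53.6% in dCD. The cationic carriers summed to 187 ± 3.51 TPM in WT, 124.5 ± 2.67 TPM in dKO and 116 ± 4.12 TPM in dCD. Slc7a2 (CAT2) was low, at 0.595 TPM in WT, and higher in dKO at 1.37 TPM (limma adjusted p = 0.000462) and in dCD at 1.48 TPM (limma adjusted p = 0.000347). Slc7a4, whose transport activity is not established, rose in dKO from 1.85 to 4.03 TPM (limma adjusted p = 9.91e-06).

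Glutamate carriers of family 1 kept one order of mean level in WT and dCD (Slc1a1, Slc1a3, Slc1a6) and the reverse order in dKO. Slc1a1 (EAAC1), which takes up glutamate, aspartate and cysteine, was at 4.89, 4.82 and 5.04 TPM in WT, 0.272, 0.262 and 0.205 TPM in dKO, and 13.8, 13.3 and 14.8 TPM in dCD. It was thus nearly lost in every dKO library and highest in every dCD library. On the log2 scale the change was -2.25 in dKO (SE 0.0654, limma adjusted p = 5.86e-10) and 1.34 in dCD (SE 0.0654, limma adjusted p = 6.57e-08). Between dKO and dCD it differed by -3.59 (limma adjusted p = 2.91e-11), the largest fitted difference of the 36 transporter genes in that comparison. The dKO values rest on 11 to 16 reads per library, against 198 to 367 in WT. Gm5822, a pseudogene within Slc1a1 in the annotation, was at 13.8 TPM in WT and 15.3 TPM in both mutant lines.

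The sequence upstream of Slc1a1 is shown because this gene moved in opposite directions in the mutant lines. It covers the 250 bases before the start at chr19:28834885-28835134 on the plus strand (RefSeq, GRCm38.p6), with 70.4% G and C and 27 CpG dinucleotides, and holds none of the 4 motifs.
Slc1a1: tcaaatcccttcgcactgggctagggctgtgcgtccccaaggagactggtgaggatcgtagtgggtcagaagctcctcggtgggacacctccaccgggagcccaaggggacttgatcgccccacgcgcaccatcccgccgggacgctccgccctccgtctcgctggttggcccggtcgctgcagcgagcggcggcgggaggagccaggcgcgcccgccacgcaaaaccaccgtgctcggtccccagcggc

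Slc1a6 (EAAT4), known from Purkinje cells of the cerebellum, moved against Slc1a1 in dKO. Its libraries stood at 0.861, 0.970 and 0.978 TPM in WT, 4.95, 5.28 and 4.14 TPM in dKO, and 1.24, 1.98 and 1.495 TPM in dCD. The 3 lines did not overlap. On the log2 scale it rose by 1.57 in dKO (SE 0.120, limma adjusted p = 8.09e-07) and by 0.40 in dCD (limma adjusted p = 0.0159), the latter 0.29 without dCD library 2 (limma adjusted p = 0.0617). Slc1a3 (GLAST) was at 4.68 TPM in WT, 4.19 TPM in dKO (limma adjusted p = 0.196) and 3.91 TPM in dCD (limma adjusted p = 0.0583). Its dCD and WT libraries did not overlap, and the dCD change passed with quantile normalization (limma adjusted p = 0.0296) and with voom (limma adjusted p = 0.00767), as did the dKO change with median-ratio scaling (limma adjusted p = 0.0419) and voom (limma adjusted p = 0.00416). As a share of glutamate carrier TPM, Slc1a1 held 43.7% to 47.6% in WT, 2.46% to 2.70% in dKO and 69.3% to 71.7% in dCD, and Slc1a6 held 7.69% to 9.48%, 49.1% to 54.0% and 6.39% to 10.3% in the same order. Their sum was 10.7 ± 0.482 TPM in WT (SD, n = 3) and 9.40 ± 0.918 TPM in dKO, and it was 19.7 ± 0.772 TPM in dCD.

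Of the neutral exchangers, Slc1a5 (ASCT2), a glutamine exchanger, was at 66.5 ± 1.65 TPM in WT (SD, n = 3), 85.96 ± 3.18 TPM in dKO and 59.5 ± 3.86 TPM in dCD. It rose in dKO by 0.37 on the log2 scale (limma adjusted p = 4.11e-05) and fell in dCD by 0.16 (limma adjusted p = 0.0132). Slc1a4 (ASCT1), an exchanger of alanine, serine and cysteine, went from 28.1 to 33.2 TPM in dKO (limma adjusted p = 0.00543), a call lost under median-ratio scaling (limma adjusted p = 0.0711).

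**Figure D4:**
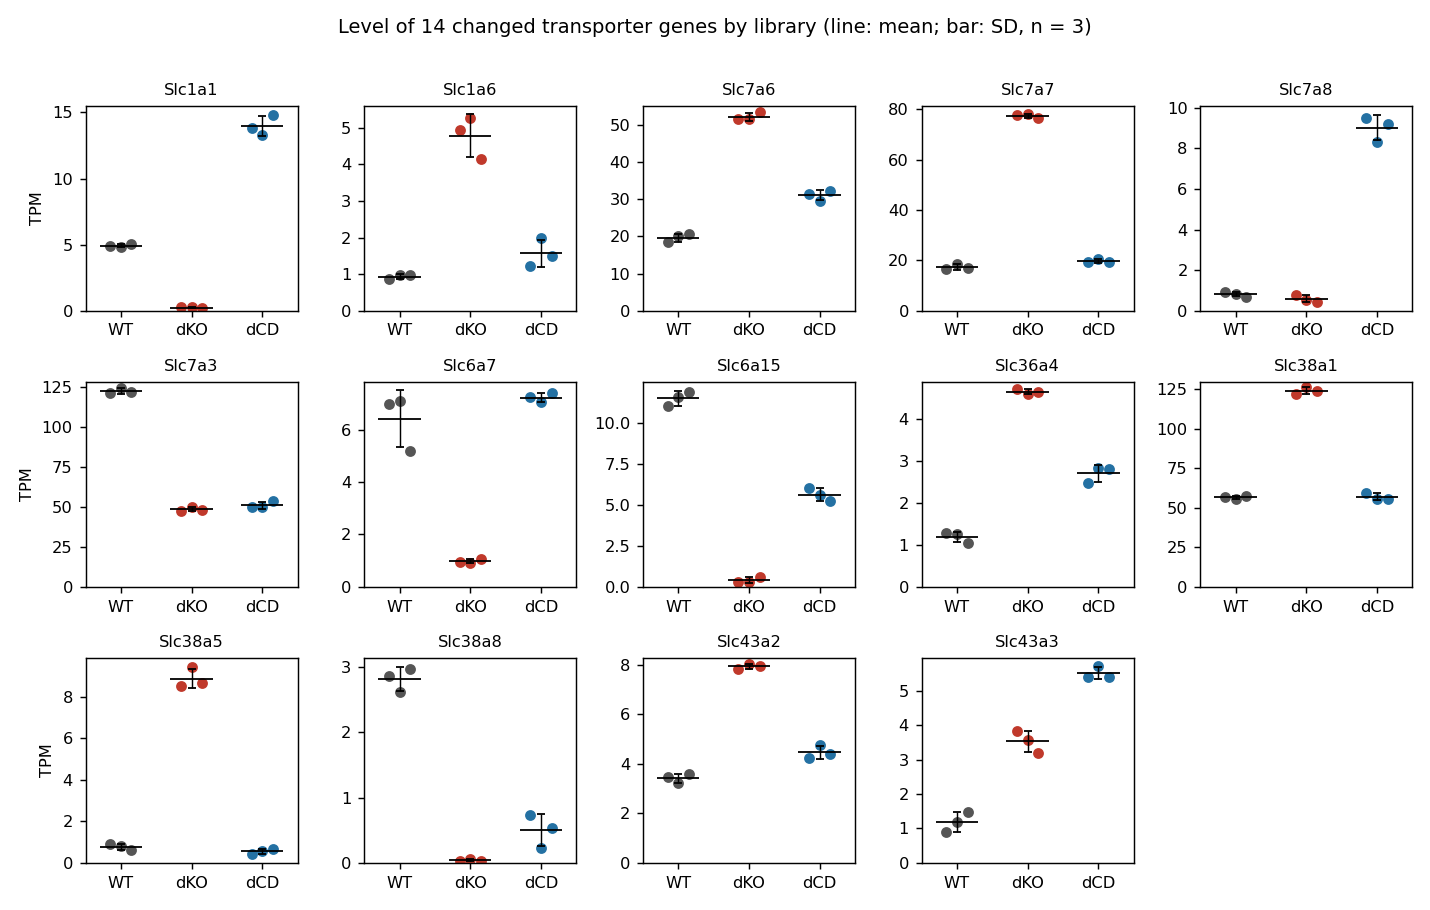
TPM in each of the 9 libraries for 14 of the 15 transporter genes that changed at least 2-fold in any of the 3 comparisons; each point is 1 library, the line is the mean and the bar the SD (n = 3). Slc7a7, Slc38a1 and Slc38a5 are high in dKO and not in dCD, Slc7a8 is high in dCD and not in dKO, and Slc7a3 is low in both mutant lines.

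Family 6 held abundant genes that rose in dKO and less abundant genes that fell. Slc6a6 (TauT), the taurine carrier, was at 133, 128 and 127 TPM in WT, 217, 213 and 227 TPM in dKO, and 128, 117 and 126 TPM in dCD. The dKO libraries stood apart, and dCD overlapped WT. It rose in dKO by 0.75 on the log2 scale (SE 0.0378, limma adjusted p = 3.07e-08), and the dCD change was -0.06 (limma adjusted p = 0.17). The difference between dKO and dCD was 0.82 (limma adjusted p = 2.11e-08). Slc6a8, the creatine carrier, measured 172, 164 and 155 TPM in WT, 216, 213 and 219 TPM in dKO, and 176, 170.4 and 178 TPM in dCD. Again dKO was highest in every library, and dCD overlapped WT. Its log2 fold change was 0.40 in dKO (SE 0.0353, limma adjusted p = 2.64e-06). The dCD value, 0.10 (limma adjusted p = 0.0381), lost its call without WT library 2 or 3 or dCD library 1 or 3, with limma adjusted p-values up to 0.1302.

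Slc6a15 (B0AT2), a carrier of branched-chain amino acids and proline, fell in both mutant lines and most in dKO. Its level was 11.01, 11.6 and 11.9 TPM in WT, 0.319, 0.278 and 0.601 TPM in dKO, and 5.995, 5.61 and 5.23 TPM in dCD. The lines did not overlap, with dCD between WT and dKO. The dKO libraries hold 9 to 19 reads each, against 275 to 519 in WT. Its log2 fold change was -3.16 in dKO (SE 0.0935, limma adjusted p = 6.42e-10), the deepest of all transporter genes on this scale, and -0.92 in dCD (SE 0.0935, limma adjusted p = 1.44e-05).

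Slc6a7 (PROT), the high-affinity proline carrier of brain, was low in dKO. Its level was 6.999, 7.09 and 5.17 TPM in WT, 0.966, 0.908 and 1.07 TPM in dKO, and 7.25, 7.04 and 7.39 TPM in dCD. WT and dCD overlapped, and all dKO libraries were lower. It fell in dKO by 1.89 on the log2 scale (SE 0.102, limma adjusted p = 5.42e-08), and the dCD change was 0.16 (limma adjusted p = 0.206). Between dKO and dCD it differed by -2.05 (limma adjusted p = 3.7e-08). Slc6a16, an orphan member, fell in dKO from 2.72 to 1.32 TPM (limma adjusted p = 0.000298). Slc6a9 (GlyT1), the glycine carrier, did not pass against WT, at 2.47 TPM in WT, 3.19 TPM in dKO (limma adjusted p = 0.0557) and 2.31 TPM in dCD (limma adjusted p = 0.637). Its dKO change of 0.27 on the log2 scale passed in 6 of 16 alternatives, among them those without WT library 2, dKO library 2 or dCD library 2 or 3. Between dKO and dCD it differed by 0.34 (limma adjusted p = 0.0226), a call lost in 5 of 16 alternatives, without dKO library 1 or dCD library 1 or 2 among them. The amino acid carriers of family 6 summed to 23.3 ± 1.06 TPM in WT (SD, n = 3), 6.29 ± 0.894 TPM in dKO and 18.7 ± 0.382 TPM in dCD.

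Family 38 holds the sodium-coupled neutral amino acid transporters (SNATs). Slc38a1 (SNAT1), a glutamine importer, was at 57.04, 55.8 and 57.7 TPM in WT, 122, 126 and 124 TPM in dKO, and 59.6, 55.5 and 55.9 TPM in dCD. All dKO libraries stood far above the others, and dCD overlapped WT. It rose by 1.12 on the log2 scale in dKO (SE 0.0313, limma adjusted p = 4.58e-10), and the change in dCD was 0.00 (SE 0.0313, limma adjusted p = 0.945). The mutant lines differed by 1.11 (limma adjusted p = 5.56e-10).

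Slc38a4 (SNAT4), which is expressed from the paternal allele as an imprinted gene in mouse, rose in both mutant lines. It measured 140.2, 136 and 146 TPM in WT, 252, 256 and 264 TPM in dKO, and 262, 249.6 and 247 TPM in dCD. All 6 mutant libraries exceeded WT, and dKO and dCD overlapped. Its log2 fold change was 0.87 in dKO (SE 0.0327, limma adjusted p = 3.79e-09) and 0.84 in dCD (SE 0.0327, limma adjusted p = 1.27e-08). The mutant lines differed by 0.03 (SE 0.0327, limma adjusted p = 0.509), and by -0.08 under median-ratio scaling (limma adjusted p = 0.0294).

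Slc38a5 (SNAT5), a glutamine and histidine carrier coupled to proton exchange, was low in WT and dCD. It was at 0.918, 0.796 and 0.631 TPM in WT, 8.53, 9.43 and 8.69 TPM in dKO, and 0.452, 0.553 and 0.684 TPM in dCD. Only dKO libraries passed 1 TPM, on 148 to 209 reads each against 9 to 22 in WT. It thus entered the tests only through dKO, so its p-values are not separate evidence of a difference. It rose in dKO by 2.47 on the log2 scale (SE 0.0962, limma adjusted p = 4.67e-09), 11.4-fold between means, and its change in dCD was -0.19 (limma adjusted p = 0.12). The mutant lines differed by 2.66 (limma adjusted p = 3.47e-09).

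The 250 bases before its start are shown because it had the largest rise in dKO on the log2 scale. They lie at chrX:8271131-8271380 on the plus strand (RefSeq, GRCm38.p6), and capitals mark the E-box CACGTG that begins 30 bases before the start and reads the same on both strands.
Slc38a5: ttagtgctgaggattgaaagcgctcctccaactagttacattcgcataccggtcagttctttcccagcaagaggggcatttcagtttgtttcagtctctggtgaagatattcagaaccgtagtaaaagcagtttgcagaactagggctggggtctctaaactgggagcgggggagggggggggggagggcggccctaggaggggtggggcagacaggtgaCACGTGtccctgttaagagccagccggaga

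Slc38a8 fell in both mutant lines. It was at 2.86, 2.62 and 2.96 TPM in WT, 0.0369, 0.0578 and 0.0329 TPM in dKO, and 0.737, 0.236 and 0.539 TPM in dCD. The dKO values stand for 1 to 2 reads per library and the dCD values for 8 to 32, against 66 to 113 in WT. Only WT libraries reached 1 TPM, so a difference was needed for Slc38a8 to be tested. Its p-values are not separate evidence of one. On the log2(TPM + 1) scale it fell by 1.87 in dKO (SE 0.134, limma adjusted p = 4.85e-07) and by 1.36 in dCD (SE 0.134, limma adjusted p = 1.11e-05). With so few reads the size in dKO was -4.36 with a pseudocount of 0.1 and ran from -5.68 (voom) to -1.77 (quantile normalization) over the alternatives.

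Slc38a2 (SNAT2), the member known to be induced by amino acid starvation, differed little. It was at 221, 214 and 220.2 TPM in WT, 207, 210.1 and 211 TPM in dKO, and 215, 207 and 210.2 TPM in dCD. Its log2 fold change in dKO, -0.06 (SE 0.0224, limma adjusted p = 0.0327), did not pass without WT library 1 or 3 or dKO library 1 or 2, with limma adjusted p-values up to 0.106. Over the alternatives it ran from -0.16 to -0.05. The dCD change, -0.05 (limma adjusted p = 0.0753), passed with median-ratio scaling, quantile normalization and without WT library 2 or dCD library 1. The difference between dKO and dCD, -0.01 (limma adjusted p = 0.721), passed with median-ratio scaling and voom, and reached -0.12 at the lowest. Slc38a10 measured 105, 101 and 103 TPM in WT, 89.5, 87.00 and 88.4 TPM in dKO, and 88.03, 83.8 and 90.4 TPM in dCD. All mutant libraries were lower than WT, with log2 fold changes of -0.22 in dKO (limma adjusted p = 7.71e-05) and -0.23 in dCD (limma adjusted p = 8.02e-05).

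Other members of family 38 include proteins of the lysosome. Slc38a9, which senses lysosomal arginine for mTORC1, rose in dKO from 3.66 to 6.03 TPM (log2 fold change 0.59, limma adjusted p = 1.58e-05) and was at 3.56 TPM in dCD (limma adjusted p = 0.711). Slc38a7, a lysosomal glutamine exporter, fell slightly in dKO, from 47.3 to 42.8 TPM (limma adjusted p = 0.00699). In dCD it was at 43.6 TPM (limma adjusted p = 0.0265), a call lost without WT library 1 or dCD library 1 or 2. Slc38a6 rose in dKO from 10.3 to 16.98 TPM (limma adjusted p = 6.89e-07) and in dCD to 12.4 TPM (limma adjusted p = 0.00179). Its overlapping neighbour Trmt5, a tRNA methyltransferase gene, rose as well, from 33.04 TPM in WT to 43.9 TPM in dKO (limma adjusted p = 3.04e-05) and 38.2 TPM in dCD (limma adjusted p = 0.00496). Slc38a3 (SNAT3) fell in dCD from 1.53 to 0.816 TPM (limma adjusted p = 0.00142), and dKO, at 1.58 TPM, was higher than dCD (limma adjusted p = 0.000699).

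The proton-coupled family 36 had 2 detected members. Slc36a4 (PAT4) was at 1.27, 1.25 and 1.04 TPM in WT, 4.69, 4.58 and 4.64 TPM in dKO, and 2.47, 2.82 and 2.80 TPM in dCD. The lines did not overlap, in the order WT, dCD and dKO. Against WT it rose by 1.37 on the log2 scale in dKO (SE 0.0787, limma adjusted p = 9.31e-08) and by 0.76 in dCD (limma adjusted p = 1.7e-05). Slc36a1 (PAT1), an exporter of small neutral amino acids from lysosomes, was at 17.99 TPM in WT, rose to 21.96 TPM in dKO (limma adjusted p = 3.86e-05) and fell to 15.8 TPM in dCD (limma adjusted p = 0.00136).

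All 3 members of family 43 were detected. Slc43a2 (LAT4), a facilitator of large neutral amino acids, measured 3.46, 3.22 and 3.57 TPM in WT, 7.83, 8.03 and 7.95 TPM in dKO, and 4.24, 4.74 and 4.39 TPM in dCD. No line overlapped another. It rose by 1.02 on the log2 scale in dKO (SE 0.0611, limma adjusted p = 1.27e-07), 0.93 at the lowest over the alternatives, and by 0.31 in dCD (limma adjusted p = 0.00159). Slc43a3, which carries purine nucleobases rather than amino acids, was at 0.892, 1.20 and 1.48 TPM in WT, 3.82, 3.56 and 3.20 TPM in dKO, and 5.41, 5.71 and 5.40 TPM in dCD. Here dCD was highest and WT lowest, with no overlap. It rose by 1.05 on the log2 scale in dKO (SE 0.103, limma adjusted p = 5.68e-06) and by 1.58 in dCD (SE 0.103, limma adjusted p = 5.44e-07). Slc43a1 (LAT3) fell in both mutant lines, from 8.53 TPM in WT to 7.05 TPM in dKO (limma adjusted p = 0.00400) and 4.94 TPM in dCD (limma adjusted p = 4.74e-06).

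Of the 24 genes not detected, Slc7a12 was listed at 0 in all 9 libraries. The one nearest to detection in a single line was Slc6a14 (ATB0,+), a carrier of broad range, at 0 in all WT libraries, at 0.113, 0.0294 and 0.101 TPM in dKO, and at 0.778, 0.902 and 0.601 TPM in dCD on 29 to 35 reads. Being under 1 TPM in every library, it was left out of the tests. Slc7a14 reached 0.687 TPM and Slc7a9, the partner of Slc3a1, reached 0.579 TPM at most. Slc1a2, the main glutamate carrier of astrocytes, reached 0.212 TPM.

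Genes of amino acid sensing and use were taken from lists chosen with earlier results known. Their counts are read against the shares of all genes, 43.4% higher and 28.4% lower in dKO, and 28.9% higher and 29.5% lower in dCD, with median changes over all genes of 0.10 and -0.01 on the log2 scale. Nothing is called particular to a list. Of 23 genes of the amino acid response, 15 were higher and 5 lower in dKO, and 11 higher and 4 lower in dCD, with a median log2 change of 0.15 in dKO and 0.05 in dCD. Atf4, the transcription factor at its centre, rose from 330.4 to 502 TPM in dKO (log2 fold change 0.60, limma adjusted p = 8.32e-08) and to 426 TPM in dCD (limma adjusted p = 7.49e-06). Asns, asparagine synthetase, fell from 533 to 170.3 TPM in dKO (log2 fold change -1.64, limma adjusted p = 3.46e-12) and to 437 TPM in dCD (limma adjusted p = 1.91e-06). Ddit4, an inhibitor of mTORC1, rose from 62.99 to 166 TPM in dKO (limma adjusted p = 5.22e-10) and to 145 TPM in dCD (limma adjusted p = 4.27e-09). Members of this list thus moved in both directions.

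Among 26 genes of mTORC1 amino acid sensing, 10 were higher and 5 lower in dKO, and 8 higher and 14 lower in dCD. Over all genes 43.4% were higher and 28.4% lower in dKO, and 28.9% and 29.5% in dCD. The list's median log2 change was 0.04 in dKO and -0.10 in dCD. Rragb, a Rag GTPase, rose in dKO from 11.5 to 32.9 TPM (limma adjusted p = 1.21e-08) and fell in dCD to 8.50 TPM (limma adjusted p = 0.000348). Its relative Rragd rose from 17.99 TPM in WT to 24.6 TPM in dKO (limma adjusted p = 2.59e-05) and 49.9 TPM in dCD (limma adjusted p = 7.64e-09). Lamtor2 fell from 186.5 TPM in WT to 148.7 TPM in dKO (limma adjusted p = 5.07e-06) and 125.9 TPM in dCD (limma adjusted p = 1.66e-07). Tsc2 fell from 125.7 TPM in WT to 104.6 TPM in dKO (limma adjusted p = 1.20e-05) and 95.5 TPM in dCD (limma adjusted p = 1.15e-06). A list around cysteine and glutathione held 12 genes, from synthesis (Gclc, Gclm, Gss) through reduction and use (Gsr, Gpx4, Txnrd1) and breakdown (Ggt1, Ggt7) to the regulators Nfe2l2 and Keap1. Of these 12, 6 were higher and 5 lower in dKO, and 8 higher and 3 lower in dCD, with a median log2 change of 0.12 in dKO and 0.34 in dCD. Cth, which makes cysteine from cystathionine, fell in dKO from 73.3 to 9.30 TPM (limma adjusted p = 3.46e-12) and in dCD to 66.3 TPM (limma adjusted p = 0.00873). Gclc, the catalytic subunit of the first enzyme of glutathione synthesis, rose in dKO from 65.2 to 145 TPM (limma adjusted p = 1.06e-10) and in dCD to 94.3 TPM (limma adjusted p = 7.71e-08).

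Of 31 genes of amino acid use, 15 were higher and 13 lower in dKO, and 9 higher and 18 lower in dCD. Beside the same all-gene shares (43.4% and 28.4% in dKO, 28.9% and 29.5% in dCD), its median log2 change was 0.10 in dKO and -0.18 in dCD. Ckb, the brain-type creatine kinase, fell from 2058 TPM in WT to 539 TPM in dKO (limma adjusted p = 1.2e-12) and 1195 TPM in dCD (limma adjusted p = 1.22e-09), beside the creatine carrier Slc6a8, which rose in dKO. Arg2, a mitochondrial arginase, rose in dCD from 0.277 to 4.82 TPM (limma adjusted p = 4.01e-08) and in dKO to 0.894 TPM (limma adjusted p = 0.000484). A list of other carriers had 14 tested genes, of which 7 encode mitochondrial carriers of family 25 and Slc7a6os encodes no carrier. Of these 14, 6 were higher and 4 lower in dKO, and 4 higher and 6 lower in dCD, none by 2-fold, with a median log2 change of 0.06 in dKO and -0.10 in dCD. Slc25a22, a mitochondrial glutamate carrier, rose in dKO from 14.9 to 25.2 TPM (limma adjusted p = 4.92e-07). Its dCD level was 14.4 TPM (limma adjusted p = 0.414). Other carriers of family 25 fell in both mutant lines. Slc25a13 went from 178.9 TPM in WT to 138.9 TPM in dKO (limma adjusted p = 1.53e-06) and 156.3 TPM in dCD (limma adjusted p = 0.000295). Slc25a12 went from 27.3 TPM in WT to 20.4 TPM in dKO (limma adjusted p = 3.51e-06) and 20.9 TPM in dCD (limma adjusted p = 1.18e-05). Slc25a39 rose from 287.9 TPM in WT to 357.5 TPM in dKO (limma adjusted p = 1.83e-06) and 320.8 TPM in dCD (limma adjusted p = 0.000540).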

How the data were processed

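Of the 48 samples of the series, the 9 RNA-seq libraries were analysed, grouped by their titles. The authors deposited 1 TPM value per gene and library and the length of each gene. HISAT2, featureCounts, DESeq2 and the build mm9 are named, without roles, per the submitters' processing notes. The annotation is not given in the sources used here, nor is the strand setting. Reads were recovered as TPM times length over a step fixed for each library, whole within 0.01 for 100% of values under 1000 reads.

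Genes with at least 1 TPM in at least 3 libraries (16179) were fitted with limma 3.58.1 in R 4.3.3 (lmFit, eBayes with a trend) on log2(TPM + 1), all libraries in 1 fit, two-sided, with Benjamini-Hochberg adjustment over all tested genes and a threshold of 0.05. This scale understates changes of low genes. The method was tested on simulated data. Values in every library are given for genes changed at least 2-fold in any comparison (15) and for the 8 most abundant. 1 gene of the rule enters all counts and sums, but its own values are not reported here. The transporter genes and lists were chosen with earlier results of these data known. Promoter windows came from RefSeq (GRCm38.p6), and overlaps of genes from the same annotation, which concern 17 detected genes. Samples of other assays (chromatin, nascent RNA and transcript starts) were not used here.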

Additional observations from a re-analysis of the deposited data

How the results depend on the processing

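Over all transporter genes, comparisons and alternatives, 1696 fitted values kept direction and side of the threshold. With the direction kept, 27 lost their call and 29 gained one. A further 30 changed sign, all 30 in values that had not passed. Those 30 are not among the gained calls, even where the new value passed. Slc38a4 between dKO and dCD passed in this way under median-ratio scaling. Genes called at least 2-fold in dCD numbered 5, but 8 with a pseudocount of 0.1 and 8 with limma-voom on recovered reads. Over all genes that count was 1123, but 1744 with the pseudocount of 0.1, 695 with a minimum of 5 TPM and 1847 with voom, and between dKO and dCD it was 1774, but 2705 with voom. The cause was not tested. With median-ratio scaling the summed transporter level was 1818 TPM in WT and 2049 TPM in dKO. Sign changes under median-ratio scaling were Slc7a5 (-0.0869) and Slc38a3 (-0.0326) in dKO against WT, and Slc38a10 (-0.0895), Slc1a3 (-0.00629) and Slc38a4 (-0.0797) between dKO and dCD. With voom they were Slc7a5 (-0.0868), Slc38a3 (-0.0335), Slc38a10 (-0.101), Slc1a3 (-0.0290) and Slc38a4 (-0.0855) in the same comparisons, and Slc7a4 in dCD (0.0155). With quantile normalization they were Slc7a5 (-0.0103) in dKO, Slc38a1 in dCD (-0.000349), and Slc7a2 (0.0179), Slc38a10 (-0.0151) and Slc38a2 (0.00369) between dKO and dCD. With 1 library left out, dCD changes ran from -0.166 to 0.0119 for Slc6a9, -0.0261 to 0.0315 for Slc7a1, -0.0704 to 0.0131 for Slc38a9, -0.0292 to 0.0214 for Slc38a1, -0.0598 to 0.0402 for Slc7a4 and -0.0403 to 0.0127 for Slc3a2. In dKO they ran from -0.00258 to 0.0376 for Slc7a5 and -0.0127 to 0.0589 for Slc38a3, and between dKO and dCD from -0.0149 to 0.0393 for Slc38a10 and -0.0227 to 0.00520 for Slc38a2. Leaving out 1 library gave 29 to 32 transporter genes changed in dKO, 20 to 23 in dCD and 26 to 28 between dKO and dCD. Slc38a5, Slc38a8 and Slc7a8 drop out whenever a library of the line that carries them is removed, since the filter needs 3. Same-numbered libraries did not deviate together (r from -0.0494 to 0.0424), so no shared effect of the number was visible. Whether they were grown or prepared together cannot be told from these values. A fit with the replicate block called 31, 24 and 28 transporter genes in the 3 comparisons, against 31, 23 and 28 without it. The added call was Slc1a3 in dCD. Depth limits genes near 1 TPM, above all Slc38a8.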
